A study of Homo sapiens with 6 samples.

Results

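Ribosome biogenesis and RNA polymerase I were described here through 56 genes chosen by name, 5 subunits of the polymerase, 6 factors of its initiation machinery and 45 proteins that modify, cut and assemble the ribosomal RNA. All 56 were present among the 19779 genes used from the table, 55 under the listed symbol and UTP4 under its older symbol CIRH1A, and all 56 passed the filter on low values that left 10741 genes for testing. The groups were parental SET-2 cells (3 libraries) and SET-2 OTX P/R cells (3 libraries). SET-2 is an established leukemia line of megakaryoblastic character that the labels assign to secondary acute myeloid leukemia, and OTX P/R is its persister and resistant derivative. The labels do not spell out OTX. Since the series title names BET inhibitors, it is taken to mean birabresib, which displaces BET bromodomain proteins from acetylated histones. Both groups were cultured in RPMI1640 medium with 20% fetal bovine serum, were labelled as untreated, and gave total RNA in exponential growth. By that label no drug was present in either group. A single derivative is labelled, with nothing on whether it is clonal, so an effect of acquired resistance and any other divergence of the derivative cannot be told apart.

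Ribosomes are built in the nucleolus. RNA polymerase I transcribes the ribosomal DNA into a long precursor. Small nucleolar ribonucleoproteins then methylate (box C/D) or pseudouridylate (box H/ACA) that precursor, while the small subunit processome and the pre-60S particles fold and cut it. Many of these genes are textbook targets of MYC, and growing leukemia cells are known for prominent nucleoli. In bulk RNA, fewer cells that express a gene and less RNA of it per cell cannot be told apart.

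The promoters were read first for the letters CACGTG, the E-box that MYC and MAX bind, because the series names MYC among the genes under study. RefSeq promoter sequence (GRCh38.p14) was matched for 47 of the 56 genes. The 250 bases before the gene start held CACGTG, which reads the same on both strands, in 4 of the 47 (8.51%). The share was 9.37% over the 8146 tested genes with a promoter and 6.34% over all 35116 promoters of the table. The windows of all 4 members are shown 5′ to 3′ on the strand of the gene, with the motif in capitals, so that its place near the gene start can be seen.
NAT10 (chr11:34105584-34105628, plus strand, GRCh38.p14): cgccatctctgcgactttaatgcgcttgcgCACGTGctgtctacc
NOP10 (chr15:34343137-34343177, minus strand, GRCh38.p14): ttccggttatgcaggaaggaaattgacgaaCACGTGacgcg
UTP20 (chr12:101280065-101280104, plus strand, GRCh38.p14): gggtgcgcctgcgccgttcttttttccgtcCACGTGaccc
UTP4 (chr16:69132603-69132648, plus strand, GRCh38.p14): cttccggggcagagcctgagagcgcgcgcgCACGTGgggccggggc
The motif began 10 to 16 bases before the gene start in these 4. NOP10 held 2 copies within its 250 bases, and the nearer one is shown and counted. Sequence past the gene start was not read. NOP10 and UTP20 were called higher in OTX P/R cells, and NAT10 and UTP4 did not pass. A match of letters is a description and not evidence of binding.

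The values are abundances per gene from StringTie that the authors quantile-normalized, so all libraries share nearly the same set of values and a gene's value follows from its rank; StringTie abundances are per transcript length, so levels can be compared between genes. A gene was called when its adjusted p from limma, fitted over all 10741 tested genes, was under 0.05, and log2 fold changes are of (value + 1), OTX P/R minus parental. Of the 56 genes 8 rose, 5 fell and 43 did not pass. That is 23.2% called, where 36.1% of all tested genes were called. By direction, 14.3% rose against 18.6% of all tested genes, and 8.93% fell against 17.5%. The groups did not overlap for 17 genes that were higher and 6 that were lower in OTX P/R cells, 41.1% in all. Over all tested genes 51.6% did not overlap, 26.8% higher and 24.9% lower. At an unadjusted p under 0.05 limma gave 14 members higher and 5 lower, and over all tested genes 24.1% higher and 22.4% lower. The median log2 fold change was 0.05 over the 56 genes and 0.02 over all tested genes. Without parental replicate 3 only 4 genes were called higher. That number was 5 when parental replicate 2 was left out, and also when either of the OTX P/R replicates 1 and 2 was.

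Changes within the set were small. A log2 fold change under 0.2 in size was found for 43 of the 56 genes (76.8%) and for 47.8% of all tested genes, as the cumulative plot shows. On the scale of (value + 1), 2 of the 56 changed by at least 1.5-fold, TCOF1, which passed, and BOP1, which did not. Of all tested genes 16.3% did. The members were abundant, with a median mean of 43.5 against 10.3 over all tested genes. Among the genes with a mean of at least 10, 12 of 50 members (24.0%) and 37.4% of 5461 tested genes were called. Their replicates were also close. The median coefficient of variation was 4.56% in the parental and 4.47% in the OTX P/R libraries, against 8.17% and 6.95% over all tested genes. Of the 43 genes that did not pass, 41 had a 95% interval within a 1.5-fold change of (value + 1) in either direction. The exceptions were BOP1 and UTP4. For low genes such as TAF1A and TAF1B this scale understates the change of the value itself.

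**Figure D1:**
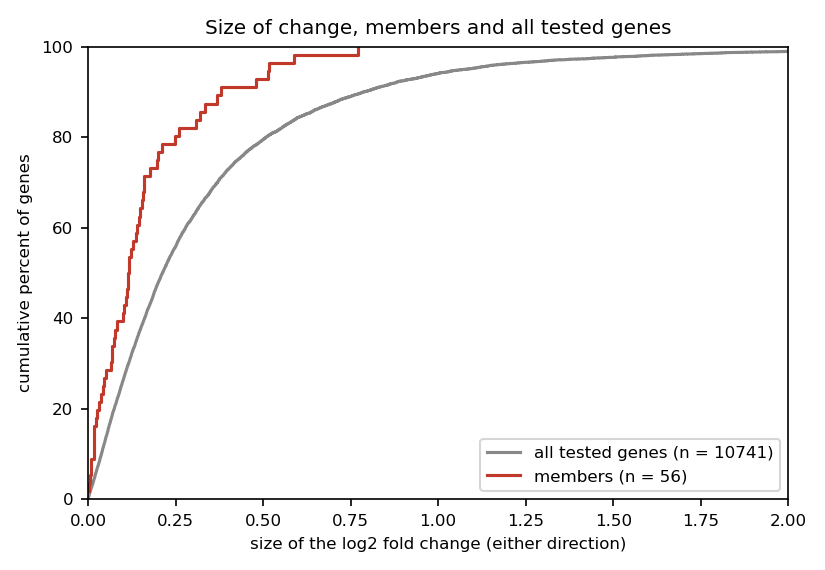
Cumulative percent of genes (vertical axis) against the size of the log2 fold change in either direction (horizontal axis), for the 56 members and the 10741 tested genes, with the horizontal axis ending at 2. The curve of the members lies to the left, with 76.8% of members and 47.8% of all tested genes under 0.2.

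**Figure D2:**
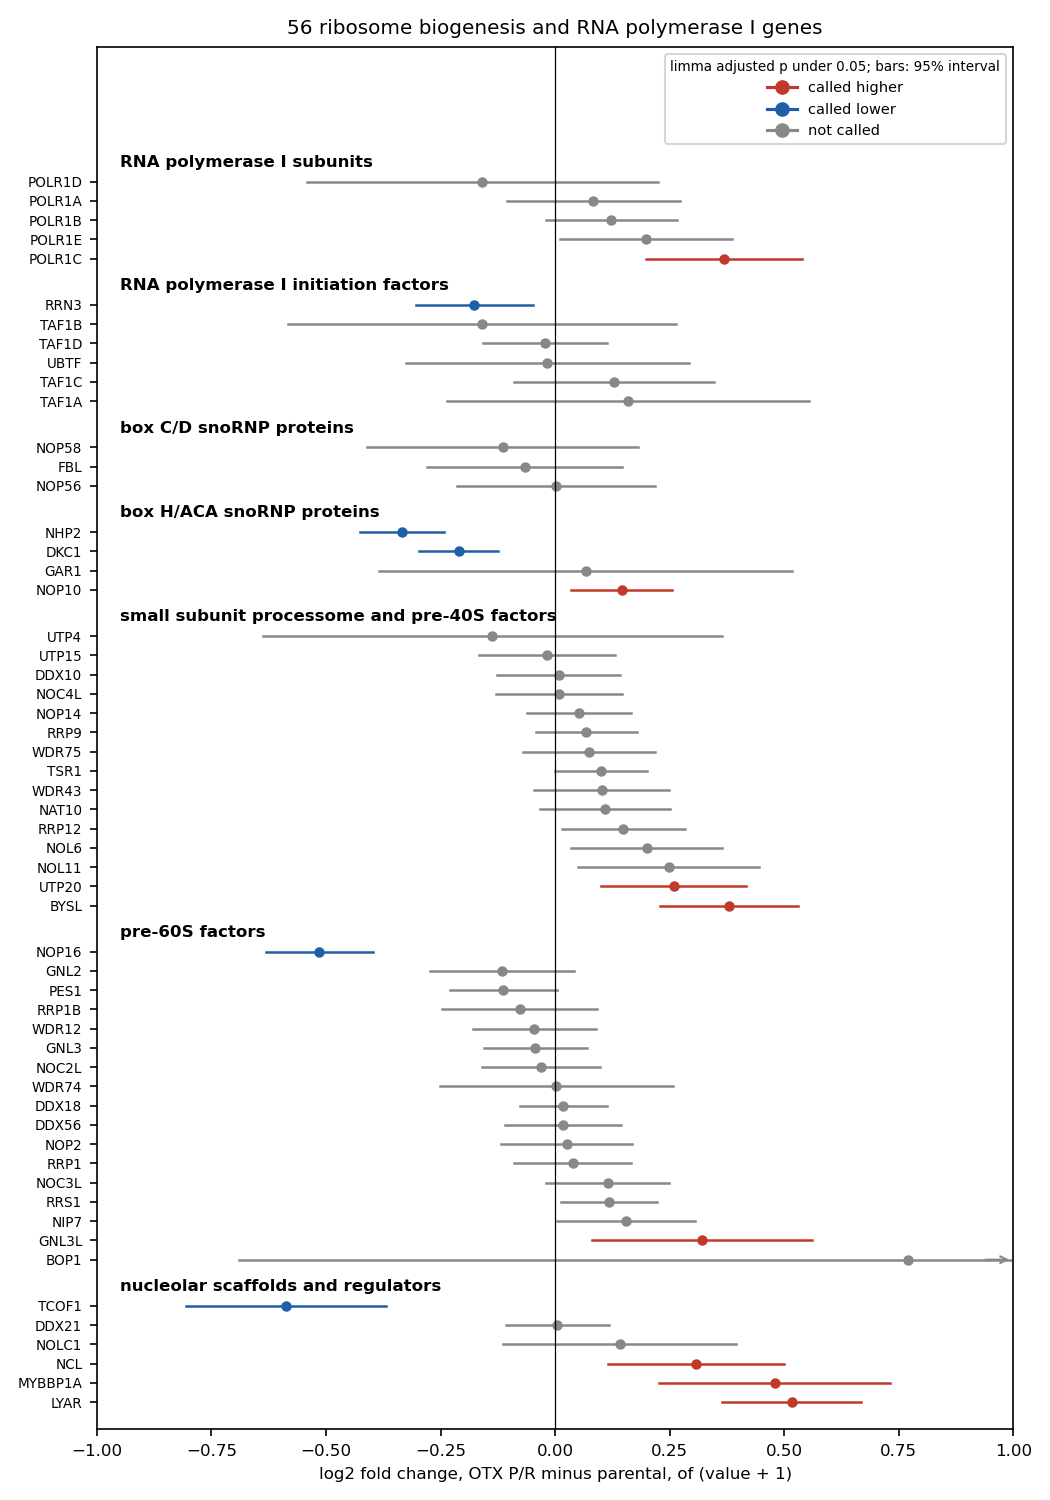
Log2 fold change of (value + 1), OTX P/R minus parental, of each of the 56 genes with its 95% interval from limma, grouped by role, with called genes in colour. Of the 13 called genes 8 lie to the right and 5 to the left of 0, and the interval of BOP1 runs past the right edge to 2.23.

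Of the 5 RNA polymerase I subunits, POLR1C rose and the other 4 did not pass, or 20.0% called against 36.1% of all tested genes. POLR1C, a subunit that RNA polymerases I and III share, stood at 21.1, 23.1 and 24.0 in the parental libraries and at 31.7, 28.7 and 28.7 in the OTX P/R libraries. All 3 OTX P/R values lay above all 3 parental values, and the log2 fold change was 0.37 ± 0.07 SE (means 22.8 ± 1.48 and 29.7 ± 1.74, SD, n = 3 per group; limma adjusted p = 0.00885). The catalytic core did not pass. POLR1A, the largest subunit, was measured at 11.9, 10.1 and 10.4 against 11.4, 11 and 12 (log2 fold change 0.08, 95% interval -0.11 to 0.27). POLR1B, the second-largest, was measured at 18.7, 16.6 and 18.2 against 19.5, 19.8 and 19.1, without overlap between the groups (0.12, interval -0.02 to 0.27, adjusted p = 0.155). POLR1E was measured at 12.1, 11.6 and 11.4 against 13.2, 15.1 and 12.6, also without overlap (0.20, interval 0.01 to 0.39, adjusted p = 0.0925). The groups overlapped for POLR1D, the other subunit shared with RNA polymerase III, at 52.3, 63.0 and 51.5 against 50.4, 40.1 and 59.8 (-0.16, interval -0.54 to 0.22).

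Among the initiation factors 1 of 6 passed (16.7%, against 36.1% of all tested genes). RRN3, which carries the polymerase to the promoter, stood at 53.7, 54.0 and 52.9 in the parental and at 46.0, 45.6 and 50.3 in the OTX P/R libraries. It fell by 0.18 ± 0.05 SE on the log2 scale (adjusted p = 0.0432). The call held without OTX P/R replicate 3 (adjusted p = 0.0246) and was lost when any other library was left out (up to 0.128). RRN3 also has near-identical pseudogene copies, among which the authors' counting could split reads. UBTF, the factor that bends and opens ribosomal DNA, did not pass, at 60.4, 42.9 and 47.3 against 46.5, 50.2 and 50.7 (log2 fold change -0.02, interval -0.33 to 0.29). Its sign turned without parental replicate 1 (0.12) and without OTX P/R replicate 1 (0.02).

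The remaining initiation factors are subunits of selectivity factor 1, which recognises the promoter of ribosomal DNA, and none of the 4 passed. TAF1A was measured at 4.6, 3.87 and 4.28 against 3.67, 6.17 and 4.97 (log2 fold change 0.16, interval -0.24 to 0.55). TAF1B was measured at 9.98, 6.94 and 7.44 against 5.61, 7.68 and 8.18 (-0.16, interval -0.58 to 0.26). TAF1C was the least abundant of them, at 2.59, 3.17 and 3.28 against 3.57, 3.20 and 3.36 (0.13, interval -0.09 to 0.35). TAF1D was the most abundant, at 24.8, 24.2 and 24.0 against 24.1, 22.6 and 25.2 (-0.02, interval -0.16 to 0.11), and its sign turned without OTX P/R replicate 2 (0.02). The groups overlapped for all 4 of these subunits. At an unadjusted p under 0.05, 2 polymerase genes were higher and 1 was lower out of the 11, where 24.1% and 22.4% of all tested genes were.

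Of the 4 box H/ACA snoRNP proteins NHP2 and DKC1 fell, NOP10 rose with a call that no leave-out kept, and GAR1 did not pass. That is 3 of 4 called, where 36.1% of all tested genes were called, 18.6% higher and 17.5% lower. NHP2, a core protein of the pseudouridylation particle, stood at 168, 165 and 167 in the parental and at 135, 131 and 131 in the OTX P/R libraries, and fell by 0.33 ± 0.04 SE on the log2 scale (adjusted p = 0.00111). DKC1, the pseudouridine synthase that also belongs to telomerase, stood at 119, 120.1 and 120.2 against 103, 103 and 104, and fell by 0.21 ± 0.04 SE (adjusted p = 0.00567). For both genes the parental libraries lay well apart from the OTX P/R libraries, and both calls held with each library left out. NOP10, another core protein, went the other way, at 144, 147 and 153 against 164, 159 and 169 (log2 fold change 0.15 ± 0.05 SE, adjusted p = 0.0495). Its groups did not overlap, but the call was lost whichever library was left out (adjusted p from 0.0547 to 0.138). GAR1 varied within each group, at 34.2, 48.9 and 49.7 against 51.7, 49.5 and 37.5, and did not pass (0.07, interval -0.38 to 0.52).

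Box C/D proteins bind the guide RNAs that direct methylation of ribosomal RNA. None of the 3 reached an unadjusted p under 0.05 in limma, where 24.1% of all tested genes were higher and 22.4% lower. FBL, the methyltransferase, ranged from 315 to 337 in the parental and from 270.4 to 333 in the OTX P/R libraries (log2 fold change -0.07, interval -0.28 to 0.15). NOP56 gave a log2 fold change of 0.00 (interval -0.21 to 0.22) and NOP58 of -0.11 (interval -0.41 to 0.18).

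Of 15 factors of the small subunit 2 rose and 0 fell, or 13.3% called against 36.1% of all tested genes. A positive log2 fold change was found for 13 of them, against 52.1% of all tested genes, and the median was 0.10. At an unadjusted p under 0.05, 5 were higher and 0 were lower, against 24.1% and 22.4% of all tested genes. BYSL, which acts in late 40S assembly, stood at 35.1, 37.3 and 33.6 in the parental and at 47.5, 47.7 and 43.6 in the OTX P/R libraries. Its groups lay apart, with a log2 fold change of 0.38 ± 0.06 SE (adjusted p = 0.00489), and the call held with each library left out. UTP20, a large scaffold of the processome, stood at 4.91, 4.52 and 4.93 against 5.75, 5.74 and 6.29 (0.26 ± 0.07 SE, adjusted p = 0.0249). Its groups did not overlap, and the call held without parental replicate 1 (adjusted p = 0.0476) but was lost when any other library was left out (up to 0.0769).

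Other processome genes came close to the threshold without passing it. NOL11, which works with the polymerase in transcription of ribosomal DNA, was measured at 33, 31.8 and 32 against 34.1, 41.7 and 40.1, with no overlap (log2 fold change 0.25 ± 0.08 SE, adjusted p = 0.0575). It passed without OTX P/R replicate 1 (adjusted p = 0.0108). NOL6 was measured at 13.8, 12 and 12.7 against 14.2, 15.3 and 15.1, again with no overlap (0.20 ± 0.07 SE, adjusted p = 0.0634). It passed without parental replicate 1 (adjusted p = 0.0375). The others ranged from -0.14 for UTP4 to 0.15 for RRP12, among them NAT10, the acetyltransferase of 18S ribosomal RNA, at 0.11 (called only without parental replicate 1, adjusted p = 0.0414) and RRP9, a U3 snoRNP protein, at 0.07.

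Among the pre-60S factors 15 of 17 did not pass, 1 rose and 1 fell, or 11.8% called against 36.1% of all tested genes. They had a median log2 fold change of 0.02. NOP16 stood at 56.8, 56.5 and 58.7 in the parental and at 40.7, 38.0 and 40.9 in the OTX P/R libraries. The groups lay far apart relative to their spread, and NOP16 fell by 0.51 ± 0.05 SE on the log2 scale (adjusted p = 5.21e-04). GNL3L, a nucleolar GTPase, stood at 19.9, 19.3 and 19.0 against 23.8, 28.3 and 21.6 (log2 fold change 0.32 ± 0.10 SE, adjusted p = 0.0481). Its call held without OTX P/R replicate 3 (0.0249) and was lost when any other library was left out (up to 0.120). GNL3, its paralog nucleostemin, did not pass (-0.04, interval -0.16 to 0.07).

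The PeBoW complex, which is needed for maturation of the large subunit RNA, consists of PES1, BOP1 and WDR12, and none of the 3 passed. PES1 was measured at 70.9, 67.0 and 65.3 against 63.9, 61.7 and 62.0, lower without overlap (log2 fold change -0.11, interval -0.23 to 0.00, adjusted p = 0.118). WDR12 gave -0.05 (interval -0.18 to 0.09). BOP1 was measured at 1.34, 1.36 and 1.12 in the parental libraries and at 9.67, 1.40 and 1.28 in the OTX P/R libraries. These values were far below those of its partners, except in OTX P/R replicate 1, where WDR12 was at 10.6. That single library carried the log2 fold change of BOP1, 0.77 ± 0.60 SE (interval -0.69 to 2.23), which was 0.04 without it. The helicases of this role stood near 0, with DDX18 at 0.02 (interval -0.08 to 0.11) and DDX56 at 0.02 (interval -0.11 to 0.14).

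**Figure D3:**
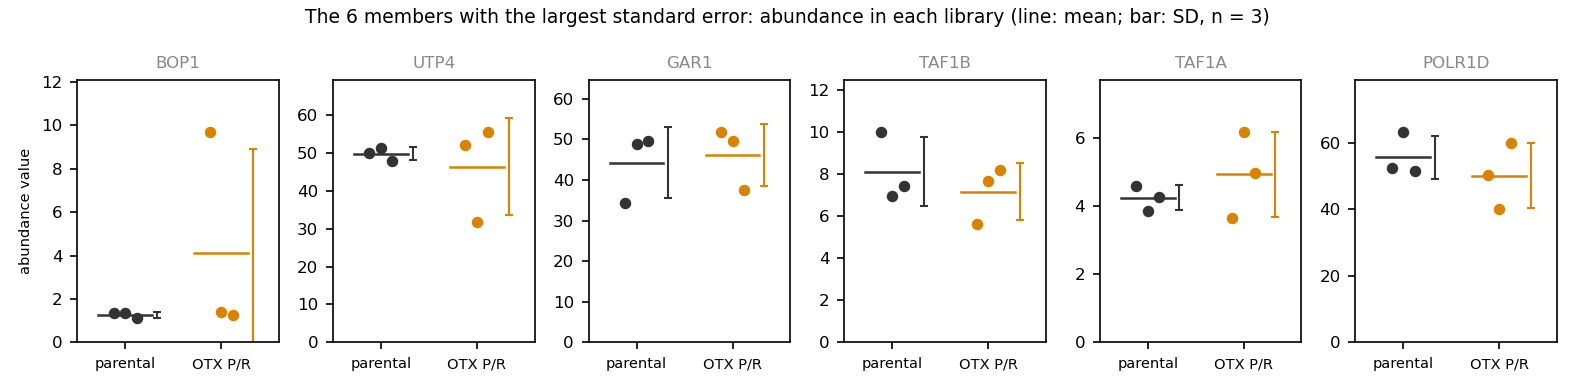
Abundance value in each library (points), with the group mean (line) and SD (bar, n = 3), for the 6 members with the largest standard error; each panel has its own axis from 0. BOP1 stands at 9.67 in OTX P/R replicate 1 and between 1.12 and 1.40 in the other libraries, its SD bar is cut at 0, and UTP4 is low in OTX P/R replicate 2 only.

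Of 6 nucleolar scaffolds and regulators 3 rose and 1 fell, or 66.7% called against 36.1% of all tested genes. LYAR, a nucleolar zinc finger protein that promotes processing of ribosomal RNA, stood at 44.4, 49.3 and 49.5 in the parental and at 69.7, 65.4 and 71.0 in the OTX P/R libraries. Its log2 fold change of 0.52 ± 0.06 SE (adjusted p = 0.00145) was the largest among the members called higher, and the groups lay apart by more than their spread. MYBBP1A, a nucleolar protein that binds RNA polymerase I and MYB, stood at 29.5, 23.0 and 27.3 against 35.7, 35.8 and 40.6 (0.48 ± 0.10 SE, adjusted p = 0.0143). Both calls held with each library left out.

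NCL, nucleolin, was the most abundant of the 56 genes, at 283, 323 and 314 in the parental and at 385, 407 and 349 in the OTX P/R libraries (log2 fold change 0.31 ± 0.08 SE, adjusted p = 0.0259). Its groups did not overlap. The call held without parental replicate 2 (adjusted p = 0.0376) and without OTX P/R replicate 3 (0.0210), and was lost when any other library was left out (up to 0.0766). TCOF1, treacle, which links UBTF and the polymerase to ribosomal DNA, stood at 38.6, 32.1 and 30.9 against 22.5, 21.5 and 22.4. It fell by 0.59 ± 0.09 SE (adjusted p = 0.00379), and all OTX P/R values lay below all parental ones. Treacher Collins syndrome arises from variants of TCOF1, POLR1B, POLR1C or POLR1D, and in these cells the first fell, POLR1C rose and the others did not pass. DDX21, a helicase that senses polymerase activity, did not pass (0.01, interval -0.11 to 0.12), nor did NOLC1 (0.14, interval -0.11 to 0.40).

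**Figure D4:**
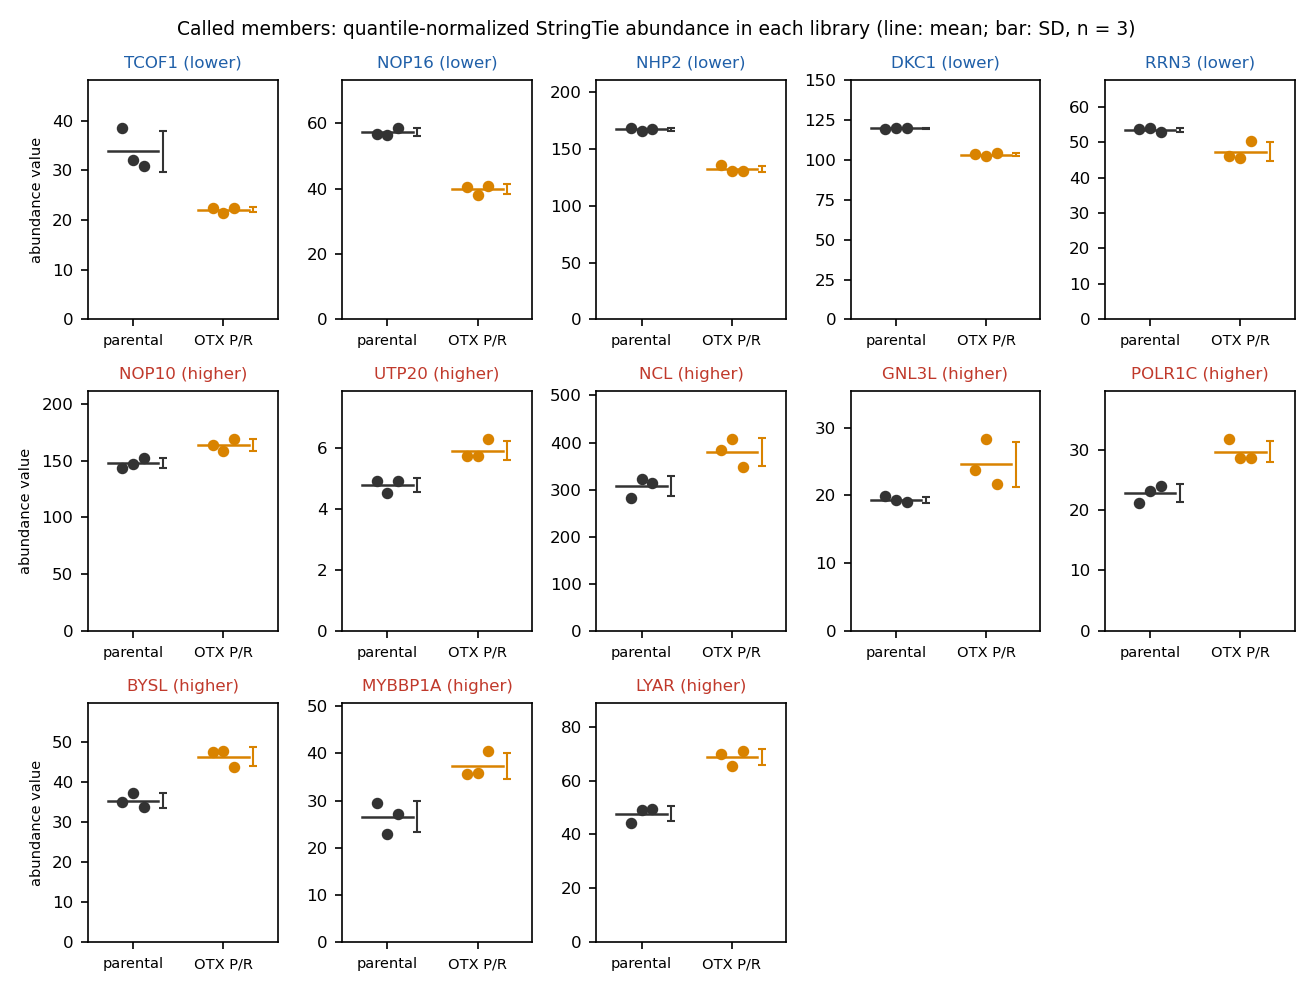
Abundance value in each library (points), with the group mean (line) and SD (bar, n = 3), for the 13 called members, ordered from the largest fall to the largest rise; each panel has its own axis from 0. The groups do not overlap in any panel, and TCOF1 and LYAR show the widest shifts.

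The positions of the members along the chromosomes were described next. Genes were ordered along the chromosomes, and a stretch was at least 25 consecutive tested genes whose running median over 25 genes was 0.3 or more in size. Such stretches held 7.32% of the tested genes and 4 of the 56 members, a like share, all 4 in stretches of lower genes. NOP16, NHP2 and TCOF1 lie in the same stretch on chromosome 5, from RELL2 to LTC4S, whose 126 tested genes had a median log2 fold change of -0.655. They are the 3 members that fell most, out of 5 called lower. Over all tested genes 1881 were called lower, and 1497 of them lay outside the stretches. The 12 tested genes on either side had a median of -0.74 around NOP16, -0.70 around TCOF1 and -0.33 around NHP2, beside -0.51, -0.59 and -0.33 for the members themselves. The next tested gene but 1 after TCOF1 was RPS14, a ribosomal protein of the small subunit, at 499, 472 and 457 in the parental and 219, 262 and 255 in the OTX P/R libraries (log2 fold change -0.96).

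The other member in a stretch was UBTF, on chromosome 17, where the neighbouring genes had a median of -0.77 and UBTF itself -0.02. Outside the stretches 8 members rose and 2 fell, DKC1 on the X chromosome and RRN3 on chromosome 16. Over all tested genes outside the stretches 1760 rose and 1497 fell, where 786 of the 10741 tested genes lay inside. Neighbours of the members that rose had medians from -0.07 around NCL to 0.30 around MYBBP1A on chromosome 17. The neighbours of BYSL on chromosome 6 had a median of 0.22, and those of LYAR on chromosome 4 and POLR1C on chromosome 6 had medians of 0.03 and 0.02. Whether the change of a member follows from that of its neighbourhood was not tested.

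**Figure D5:**
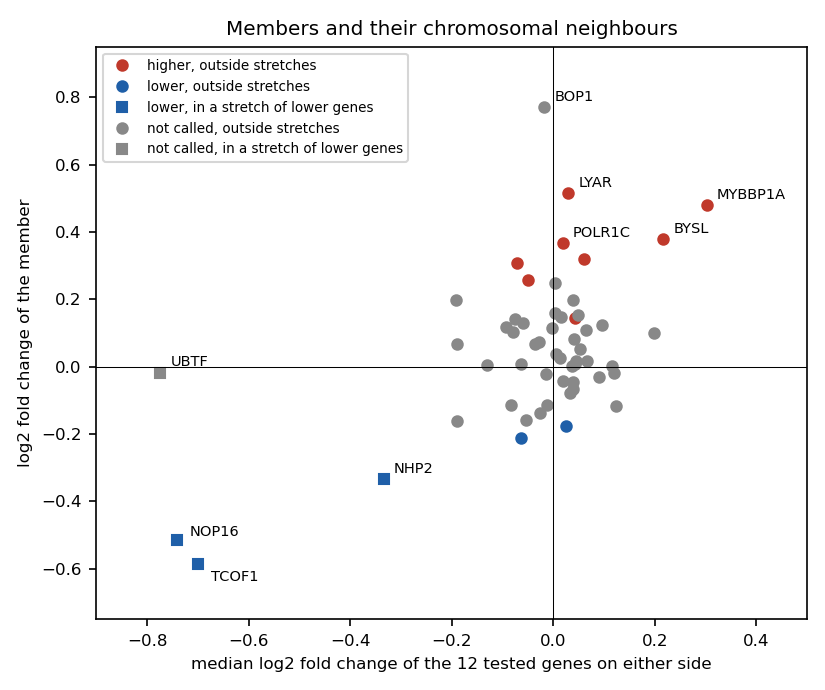
Log2 fold change of each member (vertical axis) against the median log2 fold change of the 12 tested genes on either side of it (horizontal axis); squares mark members in a stretch of lower genes. TCOF1, NOP16 and NHP2 lie at the lower left, UBTF lies at the left near 0, and LYAR and POLR1C are high with neighbours near 0.

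Other genes of ribosome production were taken as 4 lists, and in each the share called lay below the 36.1% of all tested genes. Of 77 further pre-ribosome assembly factors 10 rose, 13 fell and 54 did not pass (29.9% called, median log2 fold change 0.04). NOL7 rose from 57.8 ± 1.07 to 113 ± 1.93 and RBM28 from 4.54 ± 0.114 to 7.89 ± 0.276, each within a stretch of higher genes. UTP14A, outside such stretches, rose by a log2 fold change of 0.30. WDR3, a processome protein, fell from 60.2 ± 11.4 to 27.2 ± 2.14 and UTP6 from 17.5 ± 2.99 to 8.37 ± 1.12. NPM1, nucleophosmin, was spread widely in the parental libraries, at 667, 333 and 864, and stood at 218, 200.5 and 215 in the OTX P/R libraries, and fell by 1.445 ± 0.34 SE on the log2 scale (adjusted p = 0.0190). NPM1 and UTP6 lie in stretches of lower genes, and NPM1 has near-identical pseudogene copies. WDR3 lies outside such stretches, but its neighbours had a median log2 fold change of -0.496. The 10 rises were 6 without parental replicate 1, OTX P/R replicate 2 or OTX P/R replicate 3. Of the 13 falls 8 lay outside the stretches, against 1497 of the 1881 falls over all tested genes.

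Of 12 tested further RNA polymerase I genes 2 rose and 0 fell (16.7% called). At an unadjusted p under 0.05 limma gave 3 higher and 1 lower, where 24.1% and 22.4% of all tested genes were. TOP1, the topoisomerase that relieves torsion on ribosomal DNA, rose from 73.3 ± 3.53 to 86.4 ± 1.99, and BAZ2A, which silences copies of it, from 13.4 ± 2.60 to 18.7 ± 0.542. Only 1 rise remained in the count without parental replicate 3 or without any 1 of the OTX P/R libraries, and 2 falls appeared without parental replicate 1. Of 22 RNA polymerase III genes 5 rose and 0 fell (22.7% called), with 5 and 0 also at an unadjusted p under 0.05 in limma. All tested genes gave 18.6% higher by the adjusted and 24.1% by the unadjusted p. POLR3K, a small subunit, rose from 33.1 ± 1.66 to 46.7 ± 0.549, GTF3A, the factor of the 5S ribosomal RNA genes, by a log2 fold change of 0.36 and GTF3C5 by 0.33.

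Of 79 cytosolic ribosomal proteins 6 rose, 15 fell and 58 did not pass (26.6% called, median log2 fold change -0.05). RPL23 fell from 260.1 ± 18.2 to 117 ± 0.485, RPL23A from 369 ± 7.41 to 183 ± 14.1 and RPL27 from 935 ± 37.8 to 467 ± 9.23, and these 3 lie in the stretch of lower genes on chromosome 17. RPL41 rose by a log2 fold change of 0.36, RPS19 by 0.33 and RPS21 by 0.22. Ribosomal protein genes have many pseudogene copies that can share reads. None of the rises was called when OTX P/R replicate 1 was left out, and 1 was called with OTX P/R replicate 2 left out, where the falls numbered 9.

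Facts of the libraries as a whole set the frame for these values. Correlations of log2 values were 0.986 to 0.988 within groups and 0.948 to 0.949 between them, and the sequencing depth is unknown. Of the megakaryocyte and platelet markers ITGA2B, GP9, GP1BA, ITGB3 and GP1BB were present in both groups, and all of these but GP1BB were at shifted levels. ITGB3 rose by a log2 fold change of 1.92, GP1BA by 1.66 and GP9 by 0.54, ITGA2B fell by 0.64 on that scale, and GP1BB did not pass. ITGA2B lies in the stretch of lower genes on chromosome 17. PF4 was listed at 0 in every library and VWF was under 0.02. PPBP was at most 0.319, and SELP was at most 0.038 in the parental and 0.189 to 0.243 in the OTX P/R libraries. The summed level of 10 T and NK cell markers was 122.1 to 137.6 in the parental and 78 to 80.8 in the OTX P/R libraries, with KLRD1 listed at 0 and CD3E under 0.03. NKG7 (60.4, 65.2 and 61.0 against 31.0, 29.4 and 28.4) and CD4 (50.0, 58.9 and 59.2 against 47.4, 47.3 and 47.1) made up most of that sum. The sum of 10 myelomonocytic markers was 324 to 354 against 195 to 218, with S100A8 listed at 0. CD68 (236, 229 and 245 against 112, 111 and 110) and LYZ made up most of it, and LYZ did not pass. Of 8 B and plasma cell markers MS4A1, JCHAIN and MZB1 were listed at 0, and the sum was 14.1 to 16.3 in the parental and at most 10.9 in the OTX P/R libraries. For 11 stromal and epithelial markers the sum was 17.0 to 20.3 against 30.8 to 34.4. Of the tested genes on these lists, 3 of 4 T and NK cell, 2 of 3 myelomonocytic and 2 of 2 B cell genes fell. KRT18 and PECAM1, the 2 tested genes of the stromal and epithelial list, rose. Over all tested genes 18.6% rose and 17.5% fell. The part of these marker shifts in the results was not tested.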

How the data were processed

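Total RNA of 6 SET-2 samples was sequenced, 3 per group, and groups and replicate numbers were taken from the sample titles. Reads were trimmed, aligned and quantified by the authors with Trim Galore, HISAT2 and StringTie on hg19, as the submitters' processing notes list them; no version or counting annotation is named in the sources used here. Each deposited value is a linear signal that StringTie estimated for a gene, of unstated exact unit. Their sorted values differ by at most 0.243% between libraries at values of 1 or more, so the table is quantile-normalized, total differences are not kept, and no counting intervals can be given. Of 19785 genes 6 had a missing value and were left out.

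Values were transformed as log2(value + 1). A mean of 1 or more was required. The fit used limma 3.58.1 under R 4.3.3 (linear model, empirical Bayes variances with a mean trend, two-sided, Benjamini-Hochberg over all 10741 tested genes). The scale understates changes of low genes. P-values measure the spread between these libraries and not between derivatives, and an exact permutation of 3 against 3 cannot go below 0.1. The sample titles do not say whether the replicates are separate cultures. Values in each library are given for called members, the 3 uncalled members with the largest change and the polymerase genes, with GAR1 and PES1 added after their values were seen, and up to 3 called genes per direction for the other lists. The members and lists were chosen with earlier results of these data known. Gene order came from GENCODE v29 on GRCh38, not the authors' build, and was used for order and chromosome only. The fit was tested on simulated data. Python 3.11.15 with NumPy 2.4.6 and pandas 2.3.3 wrote the tables, and Matplotlib 3.10.9 drew the plots. Alternatives were another pseudocount, filter, prior or centring, a replicate block, each library left out and summed symbols, with genes outside the stretches added after the data were seen. A marker gene of the megakaryocyte list is not reported here.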

Additional observations from a re-analysis of the deposited data

How the results depend on the processing

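Leaving out each library in turn gave 4 to 7 members higher and 4 to 5 lower, a median log2 fold change over the members of 0.032 to 0.062, 6 to 8 rises among the other assembly factors, 1 to 2 rises and 0 to 2 falls among the other RNA polymerase I genes, and 0 to 5 rises and 9 to 12 falls among the ribosomal proteins. These fits have fewer samples. Of the 13 called members 8 were called in all 6 of them, and RRN3, NOP10, UTP20, GNL3L and NCL were not. In them UBTF ranged from -0.12 to 0.121, turning its sign without parental replicate 1 (0.121) and OTX P/R replicate 1 (0.021), and TAF1D ranged from -0.058 to 0.018, turning without OTX P/R replicate 2. With the replicate number as a block, 5 members were higher, as were 5 other assembly factors and 1 other RNA polymerase I gene, and 8 ribosomal proteins were lower; the calls of GNL3L, NOP10, RRN3 and UTP20 were lost. The numbers did not pair the libraries (correlations of same-numbered deviations -0.065, -0.028 and 0). Outside the shifted stretches 2 members, 8 other assembly factors, 9 ribosomal proteins and 1497 of all tested genes were lower, and the median over the members was 0.068. It was 0.025 with a minimum mean of 5. With no filter 1 other RNA polymerase I gene and 3 ribosomal proteins were higher. The cause of these shifts was not tested. The prior without a trend ended the calls of GNL3L, NOP10 and RRN3, a pseudocount of 5 that of NOP10, and no filter that of GNL3L, while RRS1 and TSR1 were gained. A pseudocount of 0.1, a robust prior, centring and summed symbols kept all 13. Depth is unknown, and values of low genes such as BOP1 and TAF1C are the least precise.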
